A study of Mus musculus with 4 samples.

Results

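The gene of the glucocorticoid receptor, *Nr3c1*, and 6 genes known as targets of the receptor, *Tsc22d3*, *Fkbp5*, *Ddit4*, *Sgk1*, *Klf9* and *Zbtb16*, were measured in CD4+ T cells sorted from mouse spleen. The 7 genes were taken by name from the 55367 gene symbols counted in each library, and all 7 were found. Their measured values were no criterion of the choice, but earlier results of these data were known when it was made. RNA was sequenced from C57BL/6 mice of 2 genotypes, with 2 libraries labelled WT and 2 labelled as a *Satb1* conditional knockout (cKO). The design describes *Satb1* F/F mice that carry Cre under *Thpok*, the gene *Zbtb7b*, which T cells turn on as they commit to the CD4 lineage, so that deletion is restricted to cells that have expressed it. The labels give no treatment of the cells and neither the age nor the sex of the mice, and the study used young adult mice of mixed sexes. The libraries of a genotype are described by the study as biological replicates. The p-values set a difference against the spread between them, which for each gene is estimated together with that of all tested genes. SATB1 is a nuclear protein that folds chromatin and tunes transcription in T cells, and the comparison of the genotypes asks which transcripts differ when its gene is targeted after lineage commitment.

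Glucocorticoids are steroid hormones of the adrenal gland that restrain inflammation, shape T cell survival and follow a daily rhythm. Without hormone, the receptor is held in the cytoplasm by Hsp90, Hsp70 and their co-chaperones. With hormone, it moves to the nucleus, where it binds DNA as a dimer and turns on genes such as the targets measured here, and it also restrains the inflammatory factors NF-kappaB and AP-1. T cells use this pathway in the thymus and in the periphery, where the hormone raises the receptors for interleukin-7 and for CXCL12 and lowers inflammatory cytokines.

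The dimer is known to favour an inverted repeat, AGAACA and TGTTCT with 3 bases of any kind between them. This repeat was searched on both strands in RefSeq promoter windows of GRCm38.p6, which run from 250 bases before to 50 bases after an annotated start. The windows held 5 of the 7 genes in 12 windows, namely *Sgk1*, *Tsc22d3*, *Ddit4*, *Fkbp5* and *Klf9*. An exact match was found in 1 of the 12, at 1 of the 6 annotated starts of *Sgk1*. It lies at chr10:21993701-21993715 on the plus strand, 175 bases before that start and outside annotated exons. It is shown as the only match among these windows, with the repeat and its spacer in capitals within chr10:21993671-21993745, 5′ to 3′.
Sgk1: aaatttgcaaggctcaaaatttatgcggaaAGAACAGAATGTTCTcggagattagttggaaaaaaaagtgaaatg
Exact matches were rare, in 3 of 32851 windows (0.00913%) and in 3 of 27025 genes (0.0111%). With at most 1 mismatch in the 12 fixed letters, 54 windows (0.164%) held a match, and the windows of the other 4 genes remained without one. None of the windows of 28 other genes known to be induced by glucocorticoids held an exact match or a match with 1 mismatch. A match describes letters in a window and is no measurement of receptor binding, and elements outside these windows were not searched.

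Each library held between 4495902 and 6555699 reads on genes. Of the markers of the labelled cell type, *Cd4* was between 1183 and 1279 CPM (reads of a gene scaled to 1e+06 reads on genes). Of the markers of other lymphocytes, *Cd8a* was between 4.25 and 6.86 CPM, *Cd8b1* was at 42.4 and 52.0 CPM in WT and at 27.4 and 22.5 CPM in cKO, and the immunoglobulin gene *Ighm* was between 445 and 583 CPM. *Satb1* itself stood at 868 and 984 CPM in the WT libraries and at 945 and 847 CPM in the libraries labelled cKO, a log2 fold change of -0.05 ± 0.12 (SE) with an edgeR adjusted p of 0.877. The count covers the whole gene and does not show whether the floxed exons were removed, so the genotype is used below as a label. The genotypes also differed in sex-linked transcripts, since *Xist*, which is made from the inactive X chromosome of females, was at 833 and 949 CPM in WT against 1.71 and 1.28 CPM in cKO, and the Y-linked *Ddx3y* was at 0 counts in both WT libraries and at 525 and 597 counts in cKO. Sex and genotype cannot be told apart in any value given here.

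*Nr3c1*, the gene of the receptor, was expressed in every library and was higher in both cKO libraries. It stood at 134 and 144 CPM in the WT libraries and at 183 and 194 CPM in the cKO libraries, from 644 to 959 reads per library. The libraries of a genotype lay close together and the genotypes did not overlap. The mean was 139 ± 7.39 CPM in WT and 189 ± 8.31 CPM in cKO (SD, n = 2 each). The log2 fold change was 0.44 ± 0.10 (SE), a rise of 1.36-fold with a 95% interval of 1.16 to 1.59, and it passed the edgeR quasi-likelihood test over 12403 genes with an adjusted p of 0.0447. The rise was modest, since 20.5% of all tested genes had a log2 fold change of at least this size in either direction. The call rested close to the threshold, because DESeq2 gave an adjusted p of 0.0708 for a log2 fold change of 0.45. It was also lost without WT 1, with an adjusted p of 0.341, and without WT 2, with 0.270, although the log2 fold change stayed at 0.39 and 0.49. Over the 12 alternative settings the adjusted p ran from 0.00576 to 0.341, and the gene was called in 9 of them. The gene occupies 39410545 to 39519421 of chromosome 18, minus strand, in GENCODE M21 on GRCm38. No exon of the 7 genes overlaps an exon of another gene on either strand.

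**Figure D1:**
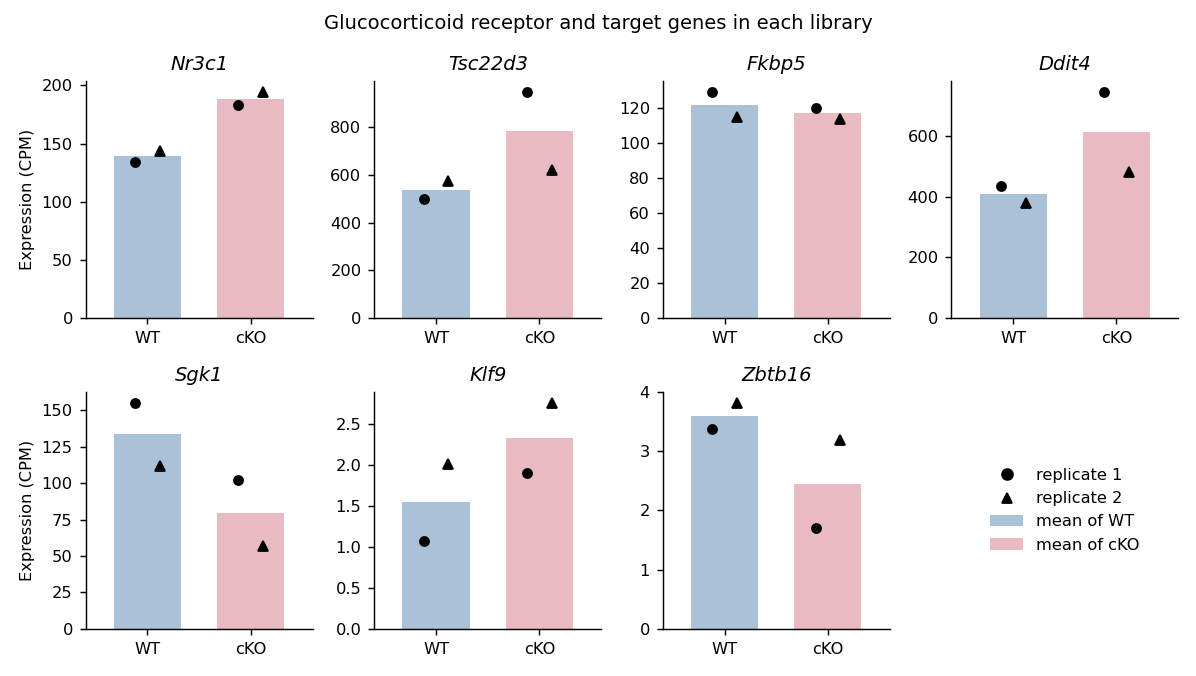
Expression in CPM (vertical axes, each starting at 0) of the receptor gene and its 6 targets in the 2 WT and 2 cKO libraries, with points for libraries and bars for the mean of a genotype. *Nr3c1* is higher in both cKO libraries with close replicates, whereas the cKO libraries of *Tsc22d3*, *Ddit4* and *Sgk1* lie far apart.

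*Tsc22d3* and *Ddit4*, the most abundant targets, were higher in both cKO libraries than in either WT library, but by unequal amounts and without passing the test. *Tsc22d3* encodes GILZ, a leucine zipper protein through which glucocorticoids restrain NF-kappaB and AP-1. Its level was 499 and 575 CPM in WT and 946 and 621 CPM in cKO. The cKO 1 library stood well above the other 3, at 1.52 times cKO 2. The means were 537 ± 53.5 and 784 ± 229.5 CPM (SD, n = 2 each), and the log2 fold change of 0.55 ± 0.18 (SE) had an adjusted p of 0.148 in edgeR.

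*Ddit4* encodes REDD1, an inhibitor of mTORC1 that is induced by stress and by glucocorticoids. It gave 435 and 380.5 CPM in WT and 744 and 481 CPM in cKO. The library cKO 1 was again the highest, at 1.55 times cKO 2, and the genotypes did not overlap. The means were 408 ± 38.6 and 612 ± 186 CPM (SD, n = 2 each), with a log2 fold change of 0.59 ± 0.19 (SE) and an edgeR adjusted p of 0.127. For both genes the size of the difference was set by 1 library. Without cKO 1 the log2 fold change was 0.21 for *Tsc22d3* (adjusted p = 0.168, edgeR) and 0.24 for *Ddit4* (adjusted p = 0.121). Without cKO 2 both genes were called, at 0.82 (adjusted p = 1.78e-06) and 0.87 (adjusted p = 6.85e-07). Both genes are read from the minus strand, *Tsc22d3* at 140539528 to 140600659 of the X chromosome and *Ddit4* at 59949669 to 59951834 of chromosome 10.

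*Sgk1* differed in the opposite direction from *Nr3c1*, *Tsc22d3* and *Ddit4*. The gene encodes a kinase that is induced by glucocorticoids, acts downstream of PI3K and controls ion transport and helper T cell differentiation. It stood at 155 and 112 CPM in WT and at 102 and 57.2 CPM in cKO. Both cKO libraries lay below both WT libraries, yet cKO 1 was nearer to WT 2 than to cKO 2. The means were 134 ± 30.1 CPM in WT and 79.7 ± 31.8 CPM in cKO (SD, n = 2 each). The log2 fold change of -0.75 ± 0.25 (SE), with a 95% interval of -1.3 to -0.19, had an edgeR adjusted p of 0.139 and was not called. Replicates of *Sgk1* also differed within the genotypes, by 1.38 times between the WT libraries and by 1.79 times between the cKO libraries. Without cKO 1 the log2 fold change was -1.23 and was called (adjusted p = 0.000703), and without cKO 2 it was -0.40 (adjusted p = 0.0672). *Sgk1* spans chromosome 10 from 21882184 to 21999903 on the plus strand, and the promoter match printed above lies within that span.

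*Fkbp5* showed no difference beyond the spread of its libraries. It encodes FKBP51, a co-chaperone that lowers the affinity of the receptor for hormone and is itself induced by it. Its level was 129 and 115 CPM in WT and 120.0 and 114 CPM in cKO. The ranges of the genotypes overlapped, and all 4 libraries lay close together. The log2 fold change was -0.06 ± 0.11 (SE) with an adjusted p of 0.808 in edgeR, and its 95% interval of -0.31 to 0.18 bounds the difference on either side. The gene occupies 28399094 to 28517527 of chromosome 17, minus strand.

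*Klf9* and *Zbtb16* were close to the limit of detection. *Klf9*, a Krüppel-like repressor that is induced by glucocorticoids in many tissues, had 7 and 9 reads in WT and 10 and 13 reads in cKO, which is 1.07, 2.02, 1.91 and 2.76 CPM. *Zbtb16* encodes PLZF, a factor of innate-like T cells that glucocorticoids induce in several other cell types. It had 22 and 17 reads in WT and 9 and 15 in cKO, which is 3.37, 3.81, 1.71 and 3.19 CPM. The genotypes overlapped for *Klf9* and did not for *Zbtb16*, but the exact 95% Poisson intervals of WT 1 and cKO 1 still overlapped for *Zbtb16*, at 2.11 to 5.09 and 0.784 to 3.26 CPM. The log2 fold changes were 0.64 ± 0.50 (SE) and -0.55 ± 0.43 (SE), with edgeR adjusted p of 0.545 and 0.538. A difference was not detectable at this depth for either gene. Single libraries set the size of both values, at 0.21 without WT 1 and 1.10 without WT 2 for *Klf9*, and at -0.16 without cKO 1 and -1.04 without cKO 2 for *Zbtb16*. *Klf9* occupies 23141226 to 23168134 of chromosome 19, plus strand, and *Zbtb16* occupies 48654297 to 48836222 of chromosome 9, minus strand.

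Of the 7 genes, all of which passed the filter on low counts, only *Nr3c1* was called by edgeR. Of the 6 targets 0 were called, and 3 had an unadjusted p under 0.05, which 19.1% of all tested genes had. DESeq2 also called none of them, but it gave no adjusted p for *Klf9*. Over all tested genes 4.30% were called, 2.35% as higher and 1.95% as lower in cKO. Refits with a library left out called 4.02% of all tested genes without WT 1, 1.40% without WT 2, 10.6% without cKO 1 and 12.8% without cKO 2, which are the shares beside which the counts of such refits given below stand. The cKO libraries lay outside the WT range for 5 of the 7 genes, above for 3 and below for 2, where 50.3% of all tested genes did so in one direction or the other. The summed level of the 6 targets was 1222 and 1189 CPM in WT and 1915 and 1279 CPM in cKO. Most of that sum was *Tsc22d3* and *Ddit4*, and its highest value was again that of cKO 1. The targets had no common direction, with *Tsc22d3*, *Ddit4* and *Klf9* at positive and *Fkbp5*, *Sgk1* and *Zbtb16* at negative log2 fold changes. In bulk RNA of this kind, a change in the share of a cell type and a change in RNA per cell cannot be told apart.

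**Figure D2:**
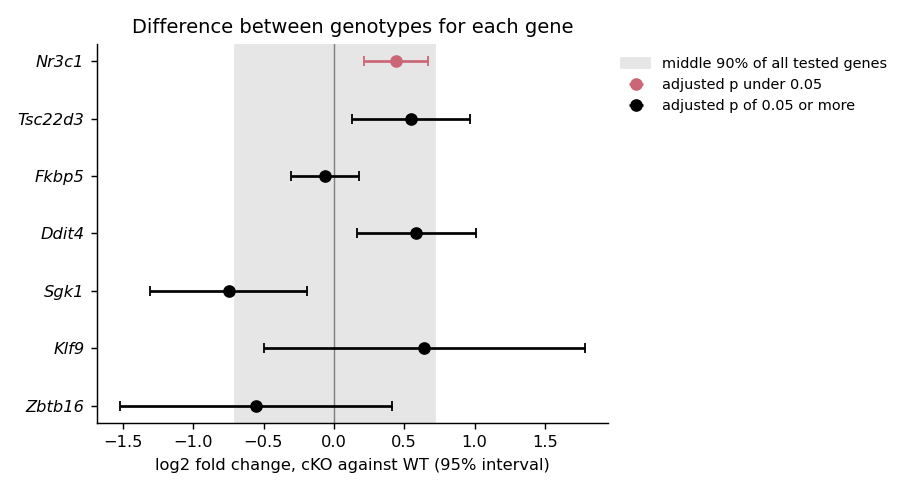
The log2 fold change of cKO against WT for each gene (horizontal axis), with its 95% interval as a bar and the range of the middle 90% of all tested genes, -0.70 to 0.71, as a grey band. The interval of *Nr3c1* is the narrowest and the only one with an adjusted p under 0.05, and the intervals of *Klf9* and *Zbtb16* are the widest.

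The pattern over the 4 libraries was compared between genes by the root mean square difference of log2 CPM after each gene's own mean was subtracted. *Tsc22d3* and *Ddit4* were the closest of all pairs among the 7 genes, at 0.14, and *Ddit4* ranked 114th of the 12402 other tested genes in likeness to *Tsc22d3*. *Sgk1* was far from both, at 0.70 and 0.68. *Nr3c1* was no closer than 0.24 to any of its targets, and the nearest, *Klf9*, ranked 4572nd of 12402. Outside the 7 genes, the closest pattern to *Nr3c1* was that of *Pkp4* (0.017), to *Tsc22d3* that of *Fmnl3* (0.031), to *Ddit4* that of *Marcksl1* (0.04) and to *Fkbp5* that of *Auh* (0.007). *Rpl36-ps12*, a processed pseudogene with few reads, was closest to *Sgk1* (0.093), *Gm527* to *Klf9* (0.042) and *Suv39h2* to *Zbtb16* (0.023). With only 4 libraries and 12402 candidates these are descriptions of the profiles.

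Levels were compared between genes as CPM per kilobase of annotated exon, a scale that does not resolve which transcripts of a gene were used. *Ddit4* was the highest of the 7 genes, at 248 and 217 in WT and 424 and 274 in cKO, above 99.2% of the tested genes with a known length. *Tsc22d3* followed at 115 and 132 in WT and 218 and 143 in cKO, and lay below *Ddit4* within each library. *Sgk1* and *Nr3c1* came next and could not be ordered over all libraries. *Sgk1* was at 31.6 and 22.9 in WT and 20.8 and 11.7 in cKO, whereas *Nr3c1* was at 17.4 and 18.8 in WT and 23.8 and 25.3 in cKO. *Sgk1* therefore stood above *Nr3c1* in both WT libraries and below it in both cKO libraries. *Fkbp5* was at 13.6 and 12.2 in WT and at a mean of 12.4 ± 0.457 (SD, n = 2) in cKO, above the median of 8.11 for tested genes, and only in cKO 2 was *Sgk1* below it. *Zbtb16* (0.325 to 0.721) and *Klf9* (0.222 to 0.574) were the lowest and their ranges overlapped.

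Among the relatives of these genes, most were at other levels. The mineralocorticoid receptor *Nr3c2*, the sister receptor that also binds corticosteroids, had 1 and 2 reads in WT and 2 and 5 in cKO, and the progesterone receptor *Pgr* had none, so that nearly all reads of corticosteroid receptor genes were from *Nr3c1*. *Sgk3*, the one related kinase detected, was at 3.21 per kilobase in WT and 1.62 in cKO and was called as lower (log2 fold change -0.97 ± 0.16, edgeR adjusted p = 0.0140), the same direction as *Sgk1*. *Sgk2* and *Ddit4l*, the paralog of *Ddit4*, had no reads in any library. The means of the *Tsc22d3* relatives were 2.85 and 3.88 for *Tsc22d1*, 5.40 and 6.65 for *Tsc22d2* and 36.1 and 41.0 for *Tsc22d4* in WT and cKO, with none called.

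The co-chaperone *Fkbp4*, which encodes FKBP52 and opposes FKBP51 on the receptor, was at 62.1 per kilobase in WT and 89.4 in cKO and was called as higher (log2 fold change 0.53 ± 0.10, edgeR adjusted p = 0.0267), while *Fkbp5* did not pass. The other immunophilins measured, *Fkbp1a* (35.5 in WT and 38.9 in cKO), *Fkbp2* (9.49 and 7.74), *Fkbp3* (14.6 and 13.8) and *Fkbp8* (49.9 and 45.1), were not called. Compared with *Klf9*, its relatives *Klf2* (271 and 284), *Klf13* (80.0 and 66.8), *Klf3* (46.3 and 42.6), *Klf6* (36.0 and 45.3) and *Klf10* (7.96 and 7.87) were far more abundant, and none was called, while *Klf4* (0.321 and 0.198) was as low as *Klf9*. Of the relatives of *Zbtb16*, *Zbtb7b*, whose product ThPOK sets the CD4 lineage, was at 38.7 and 61.0 and was called as higher (0.66 ± 0.11, adjusted p = 0.0117). *Zbtb1* (11.3 and 10.9), *Zbtb20* (2.14 and 3.75) and *Zbtb32* (6.05 and 4.77) were not called. *Zbtb7b* is the gene whose elements drive Cre in the cKO mice, and reads from its gene and from the Cre construct were not separated. Without WT 2 none of *Sgk3*, *Fkbp4* and *Zbtb7b* was called, and without WT 1 *Fkbp4* was not called.

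**Figure D3:**
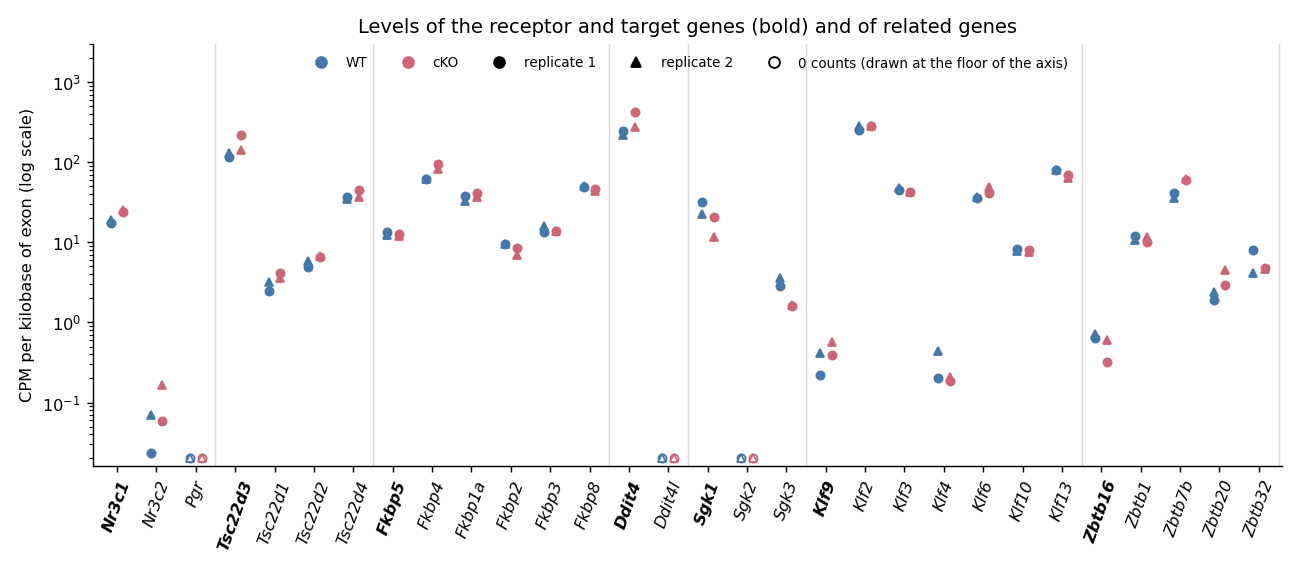
CPM per kilobase of exon (vertical axis, log scale) in the 2 WT and 2 cKO libraries for each receptor or target gene (bold) and its relatives. *Ddit4*, *Tsc22d3* and *Klf2* lie above 100, *Klf9* and *Zbtb16* lie below 1, and open symbols on the floor mark libraries with 0 counts.

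The receptor's partners were read from a list of 33 genes, of which 30 passed the filter. Called genes numbered 8, all higher in cKO, which is 26.7% of those tested against 2.35% called higher over all genes, and the median log2 fold change was 0.26 against -0.00155 over all tested genes. Of the 8 calls, 7 lay among the 12 tested chaperones that assemble the receptor, whose median was 0.61, and the other was *Abcb1a*, described below. *Hsp90aa1*, the inducible Hsp90 that holds the hormone-binding form of the receptor, was at 90.4 and 88.3 CPM in WT and 146 and 143 CPM in cKO (log2 fold change 0.69 ± 0.10, adjusted p = 0.00738). The constitutive Hsp70 gene *Hspa8* was at 687 and 588 CPM in WT and 1099 and 999 CPM in cKO (0.72 ± 0.12, adjusted p = 0.0155). *Stip1*, which hands the receptor from Hsp70 to Hsp90, was at 219 and 205 CPM in WT and 349.7 and 351 CPM in cKO (0.72 ± 0.10, adjusted p = 0.00511). In all of these the cKO libraries were close together and above both WT libraries. Without WT 2, 0 of the 12 chaperones were called, against 5 without WT 1, 8 without cKO 1 and 9 without cKO 2. The log2 fold changes without WT 2 were 0.68 for *Hsp90aa1*, 0.61 for *Hspa8* and 0.68 for *Stip1*, and the calls over all genes were 174 in that fit against 533.

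*Ptges3*, the gene of the p23 protein that stabilises the mature complex, had a log2 fold change of 0.78 ± 0.12 (edgeR adjusted p = 0.00929), and the Hsp40 gene *Dnajb1* one of 0.95 ± 0.18 (adjusted p = 0.0233). *Hspa1b* had 5 and 7 reads in WT and 43 and 18 in cKO (2.43 ± 0.55, adjusted p = 0.0440), a value that is uncertain because its copy *Hspa1a* is nearly identical in sequence, and it was called neither without WT 1, nor without WT 2, nor without cKO 1. In WT *Hspa1b* was at 0.765 and 1.57 CPM, and it passed the filter on low counts only through the cKO libraries, so it could be called only as higher. The most abundant partner, *Hsp90ab1*, was at 1934 and 1753 CPM in WT and 2388 and 2323 CPM in cKO (0.35 ± 0.13) and did not pass, with an adjusted p of 0.181. The phosphatase gene *Ppp5c*, whose product is a further Hsp90 partner of the receptor, had a log2 fold change of -0.50 ± 0.12 and an adjusted p of 0.0633. These chaperones serve many proteins besides the receptor, and 4 of the 13 listed also belong to the heat shock list, in which 5 of 7 tested genes were called as higher in cKO, against 2.35% over all tested genes, and the summed level was 638 and 553 CPM in WT against 1169 and 1092 CPM in cKO. Those 5 are *Hsph1*, *Dnaja1* and 3 already counted among the chaperones, *Hspa1b*, *Dnajb1* and *Hsp90aa1*, and without WT 2 only *Dnaja1* and *Hsph1* were called.

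The 14 co-regulators through which the bound receptor acts were all tested, with a median log2 fold change of 0.17. edgeR called 0 of them, against 4.30% over all tested genes, so the count is near the background and is no result about this list. At an unadjusted p under 0.05 there were 4, against 19.1% over all tested genes, and DESeq2 called 1, *Nrip1*. The most abundant of them, the co-repressor gene *Ncor1*, was at 715 and 723 CPM in WT and 775 and 789.7 CPM in cKO (0.12 ± 0.10, edgeR adjusted p = 0.586). Without cKO 2 there were 6 calls among the co-regulators, against 12.8% over all tested genes. Among the genes that set steroid supply, *Hsd11b1*, whose enzyme regenerates active hormone inside cells, was at 70.5 and 68.1 CPM in WT and 59.1 and 68.4 CPM in cKO, with overlapping ranges and an adjusted p of 0.640. *Hsd11b2*, whose enzyme inactivates the hormone, had at most 2 reads in a library. The P-glycoprotein gene *Abcb1b* was at 17.9 and 16.6 CPM in WT and 19.8 and 24.0 CPM in cKO and was not called (0.34 ± 0.18, edgeR adjusted p = 0.359). *Abcb1a*, a P-glycoprotein gene whose product exports steroids from cells, was at 9.94 and 10.1 CPM in WT and 18.3 and 32.3 CPM in cKO and was called as higher (1.33 ± 0.28, adjusted p = 0.0361), but at 0.87 without cKO 2 and with no call without WT 2.

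**Figure D4:**
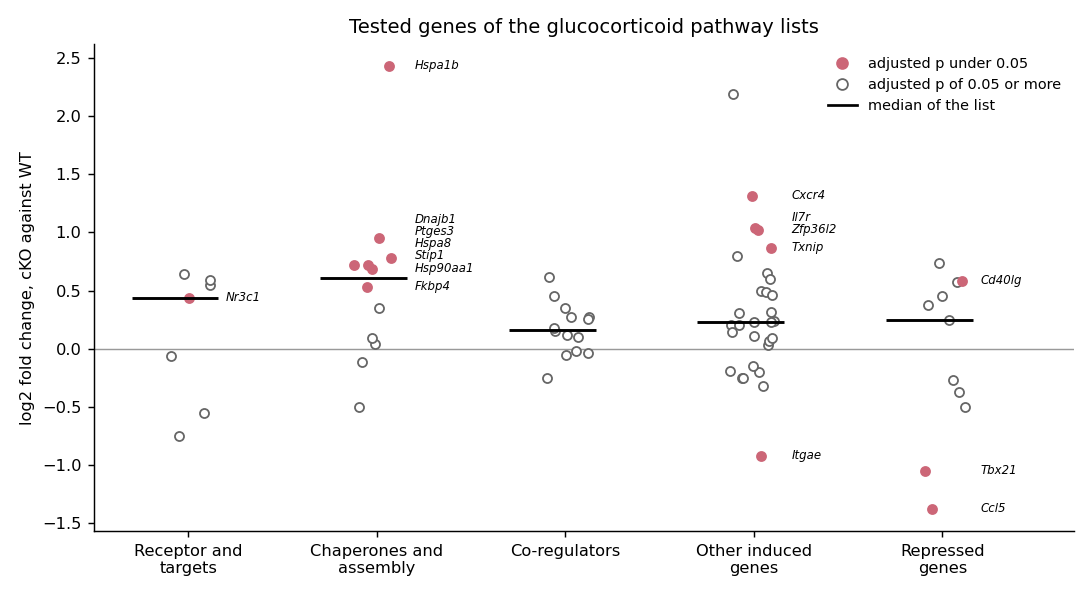
The log2 fold change of cKO against WT (vertical axis) for each tested gene of the receptor and its targets, the receptor's chaperones, its co-regulators, other induced genes and repressed inflammatory genes, with filled points for called genes and a line at the median of a list. The calls of the chaperones, 7 of 12, are all above 0, and 0 of the 14 co-regulators are called, where 4.30% of all tested genes are.

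Other genes known to be induced by glucocorticoids were taken as a wider list of 34, of which 30 passed the filter. Called genes numbered 4 higher and 1 lower in cKO, which is 16.7% of those tested against 4.30% over all genes. The median log2 fold change of 0.23 became 0.16 without cKO 1 and 0.36 without cKO 2. The genotypes did not overlap for 21 of the 30, where 50.3% of all tested genes did not. *Il7r*, the interleukin-7 receptor chain that naive and memory T cells need to survive, was at 365 and 486 CPM in WT and 1052 and 697 CPM in cKO (1.04 ± 0.20, edgeR adjusted p = 0.0257). *Cxcr4*, the receptor for CXCL12 that guides T cells to the bone marrow, was at 223 and 205 CPM in WT and 623 and 445 CPM in cKO (1.31 ± 0.16, adjusted p = 0.00326). *Zfp36l2*, an RNA-binding protein that destabilises cytokine transcripts, was at 738 and 678 CPM in WT and 1604 and 1271 CPM in cKO (1.02 ± 0.14, adjusted p = 0.00626). As in *Tsc22d3* and *Ddit4*, cKO 1 was the highest library for each of these 3 genes, but here cKO 2 also lay well above both WT libraries. *Il7r* was not called by DESeq2 (adjusted p = 0.0760), and *Zfp36l2* not without WT 2.

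*Txnip*, an inhibitor of thioredoxin and of glucose uptake, was at 1111 and 1055 CPM in WT and 2323 and 1629 CPM in cKO (0.87 ± 0.17, edgeR adjusted p = 0.0268). *Itgae*, the integrin chain CD103, was the gene called as lower, at 34.0 and 29.4 CPM in WT and 18.9 and 14.7 CPM in cKO (-0.92 ± 0.18, adjusted p = 0.0267). The clock gene *Per1*, a target that responds within hours of a hormone pulse, was at 56.6 and 59.6 CPM in WT and 111 and 71.6 CPM in cKO but was not called (adjusted p = 0.0947). *Nfkbia*, the inhibitor of NF-kappaB, was at 187 and 185 CPM in WT and 293 and 236 CPM in cKO, and was not called by edgeR (adjusted p = 0.0517), although DESeq2 did call it. *Dusp1*, a phosphatase that dampens p38 signalling, overlapped between the genotypes (adjusted p = 0.611), and *Mt1*, *Mt2* and *Pdk4*, strong targets in other tissues, had at most 4 reads in a library. Without WT 2 only *Cxcr4* and *Il7r* of this list were called, against 8 genes without cKO 1 and 14 without cKO 2. The genes *Per1*, *Nfkbia*, *Dusp1*, *Mt1*, *Mt2*, *Pdk4*, *Ppp5c*, *Hsd11b1*, *Hsd11b2* and *Abcb1b* were singled out after their values were seen.

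Of 23 inflammatory genes known to be repressed by glucocorticoids, only 11 passed the filter, since most cytokine genes of this list, among them *Il2*, *Ifng*, *Il4* and *Il6*, were at 15 reads or fewer in each library. Called genes numbered 1 higher and 2 lower, which is 27.3% of those tested against 4.30% over all genes. The median log2 fold change of 0.25 became 0.08 without cKO 1, 0.01 with no filter on low counts and -0.01 with autosomal genes only. The chemokine gene *Ccl5* was at 59.3 and 42.6 CPM in WT and 14.5 and 25.3 CPM in cKO (-1.38 ± 0.25, edgeR adjusted p = 0.0207). *Tbx21*, the gene of the T helper 1 factor T-bet, was at 26.8 and 21.1 CPM in WT and 9.15 and 14.2 CPM in cKO (-1.05 ± 0.24, adjusted p = 0.0494). The X-linked *Cd40lg*, whose product lets T cells help B cells, was at 85.8 and 81.3 CPM in WT and 132 and 118 CPM in cKO (0.58 ± 0.11, adjusted p = 0.0232). The NF-kappaB subunit genes *Nfkb1* (0.38 ± 0.10, adjusted p = 0.0764) and *Rela* (0.25 ± 0.12, adjusted p = 0.306) were not called. *Rela* stood at 0.08 without cKO 1 and at 0.40 without cKO 2, where it was called (edgeR adjusted p = 0.00391), and *Nfkb1* was called without either cKO library, at 0.42 without cKO 1 and 0.33 without cKO 2. *Tbx21* was called in 5 of its 12 alternatives and not by DESeq2, and without WT 2 only *Ccl5* of this list was called, against 6 genes without cKO 2.

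Markers of other cells differed between the libraries that set the values above. *Tsc22d3* and *Ddit4* were highest in cKO 1, and so was the summed level of the 10 myeloid markers. It was 182 CPM in cKO 1 and 112 CPM in cKO 2 against 72.2 and 89.6 CPM in WT. Of 9 tested, 5 were called as higher, against 2.35% over all tested genes, namely *Lyz2*, *Cybb*, *S100a9*, *Ltf* and *Ngp*. DESeq2 called 3 of these 5. *S100a9* had 0 and 1 reads in WT and 51 and 24 in cKO, *Ltf* 0 and 1 against 36 and 29, and *Ngp* 0 and 6 against 69 and 34. These 3 genes passed the filter on low counts only through the cKO libraries. They could therefore be called only as higher, and the count of 5 is no support for a direction. The 8 B cell markers summed to 765 CPM in cKO 1, 515 CPM in cKO 2 and 617 and 487 CPM in WT, with *Pax5* and *Cd74* called as higher among 5 tested, against 2.35% over all tested genes. None of them was called without WT 2, 1 without cKO 1 and 4 without cKO 2. Most of that sum is *Ighm*, at 583 and 445 CPM in WT and 582 and 448 CPM in cKO, while *Cd79a*, a part of the B cell receptor, was at 1.38 and 0.896 CPM in WT and 10.5 and 1.70 CPM in cKO. *Pax5*, with 5 and 4 reads in WT and 53 and 15 in cKO, also passed the filter only through the cKO libraries. Erythroid markers were lowest in cKO 1, at 10.1 CPM against 101 to 309 CPM in the other 3 libraries. Called in edgeR were 0 of 5, against 4.30% over all tested genes, and 0 had an unadjusted p under 0.05, against 19.1%. DESeq2 also called 0, against 427 of 12403 genes. A count of 0 among 5 is near these shares and is no result about this list. Left-out libraries moved that count, to all 5 without cKO 2, 2 without WT 1 and 1 without cKO 1. The part of these cells in the values of *Tsc22d3* and *Ddit4* was not tested. Nor was it tested for *Nr3c1*, which in cKO 1 was at 0.940 times its level in cKO 2.

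Treg markers, *Foxp3* among them, summed to 545 and 472 CPM in WT and 916 and 1136 CPM in cKO. Called as higher were 4 of 8, against 2.35% over all tested genes, *Foxp3*, *Nrp1*, *Tnfrsf18* and *Ctla4*, and 1 of the 8 had a negative log2 fold change. Without WT 2 only *Foxp3* of these markers was called, and without cKO 1 7 of them were. *Foxp3* was at 142 and 121 CPM in WT and at 405 and 547 CPM in cKO. The study reports that loss of SATB1 also turns on *Foxp3* in conventional CD4+ T cells, which did not suppress. In cKO, *Foxp3* and a sum that holds it therefore do not measure the share of Treg cells. The part of Treg cells, or of other cells with *Foxp3*, in the rise of *Nr3c1* and in the lower *Sgk1* was not tested. Markers of NKT, gamma-delta and other innate-like T cells, the cells that express *Zbtb16* most, summed to 449.7 and 416 CPM in WT and 541 and 563 CPM in cKO. Of 7 tested, 1 was called as higher, *Trdc*, and 1 as lower, against 2.35% and 1.95% over all tested genes. *Trav11* had no reads, and *Klrb1c* had 2 to 24 reads in a library. CD8 T cell markers summed to 47.7 and 58.5 CPM in WT and 34.3 and 26.8 CPM in cKO. Of the 2 tested, *Cd8b1* was called as lower, against 1.95% over all tested genes, and *Cd8a* was not called (log2 fold change -0.07, edgeR adjusted p = 0.941). The 8 CD4 T cell markers summed to 5138 and 5022 CPM in WT and 5879 and 5121 CPM in cKO. Of these 8, 1 was called, *Zbtb7b*, as higher, against 2.35% over all tested genes. Immediate early genes, which also respond to cell handling, summed to 807 and 733 CPM in WT and 862 and 752 CPM in cKO. Called in edgeR were 0 of 8, against 4.30% over all tested genes, and 2 had an unadjusted p under 0.05, against 19.1%. DESeq2 called 0, against 427 of 12403 genes. These counts are near the background and are no result about this list. Exons of *Abcb1a*, *Txnip*, *Zfp36l2*, *Dnaja1*, *Satb1*, *Xist*, *Zbtb7b*, *Foxp3*, *Tnfrsf18*, *Trdc* and *Pax5* overlap in part those of a gene on the opposite strand. If the counting ignored strand, which is not given in the sources used here, reads in the overlap cannot be assigned to 1 of the 2 genes.

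**Figure D5:**
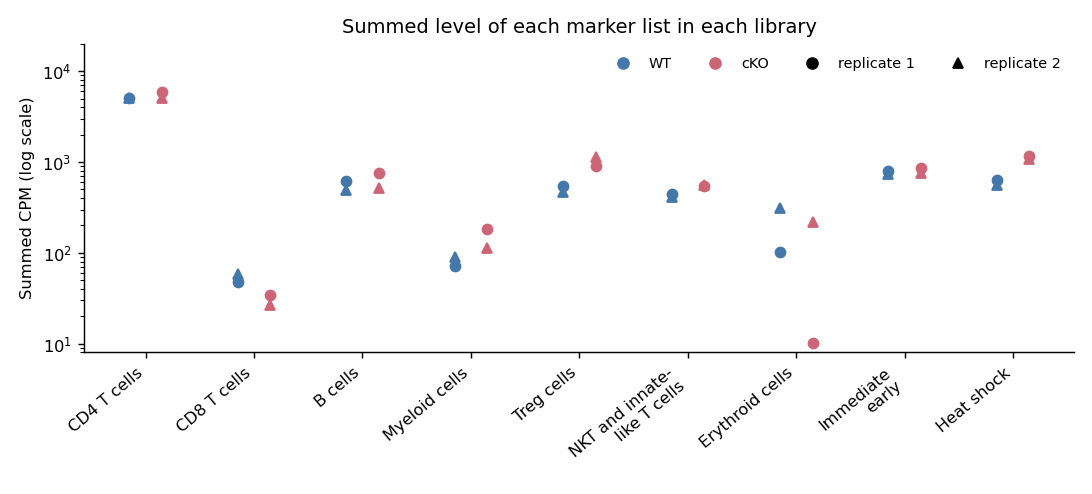
Summed CPM (vertical axis, log scale) of each fixed marker list in the 2 WT and 2 cKO libraries. The Treg and heat shock sums are higher in both cKO libraries, the myeloid sum is highest in cKO 1, and the erythroid sum is lowest there.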

How the data were processed

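CD4+ T cells were sorted from mouse spleen and sequenced by the authors, who aligned the reads to mm10 with HISAT2 2.1.0 and deposited raw counts per gene symbol from HTSeq (0.11.1 in the submitters' processing notes), with no scaling. The strand setting and annotation are not given in the sources used here. Of reads aligned to a single place, 59.4% to 64.5% were on no counted feature (HTSeq no_feature), which can include introns or, depending on the strand setting, the opposite strand, and these and the other HTSeq summary lines were left out.

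Counts were analysed with edgeR 4.0.16 in R 4.3.3 (filterByExpr, TMM scaling, quasi-likelihood F test, two-sided), cKO against WT with no covariate, and Benjamini-Hochberg adjustment over 12403 genes, with calls at an adjusted p under 0.05. An exact permutation test of a single gene could not give a p under 0.333 with 2 libraries against 2. CPM used TMM-scaled library sizes. The CPM and Poisson intervals cover counting error only, and PCR copies were not told apart from molecules. Positions and exonic lengths came from GENCODE M21, and promoter windows from RefSeq. The script was tested on simulated counts.

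The genes, lists and tests were chosen with earlier results of these data known, so they are no independent support for a direction. In each pathway list every called gene and the 3 tested genes of highest mean CPM were named, with every relative of the 7 genes, the called genes of each marker list, up to 4, by size of change, and for each of the 7 genes the gene of nearest profile. Some genes that these rules name are not reported here. Counts of libraries WT 1 and WT 2 differed by more than sampling noise (chi-square per degree of freedom 2.83), as did cKO 1 and cKO 2 (6.68). Alternatives were DESeq2 1.42.0, other scalings, filters, depth and thresholds, autosomal genes only, the replicate number as a block, and each library left out.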

Additional observations from a re-analysis of the deposited data

How the results depend on the processing

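The direction of *Nr3c1*, *Tsc22d3*, *Ddit4*, *Sgk1*, *Klf9* and *Zbtb16* was kept in every alternative run, with no value for *Tsc22d3* with autosomal genes only, none for *Klf9* with thinned counts and no adjusted p for it in DESeq2. *Fkbp5* turned to 0.03 without WT 1. With each library left out in turn, the log2 fold change ran from 0.39 to 0.49 for *Nr3c1*, 0.21 to 0.82 for *Tsc22d3*, -0.14 to 0.03 for *Fkbp5*, 0.24 to 0.87 for *Ddit4*, -1.23 to -0.40 for *Sgk1*, 0.21 to 1.10 for *Klf9* and -1.04 to -0.16 for *Zbtb16*, where a lone library is assumed to vary like the others. *Nr3c1* lost its call in DESeq2 (0.45, adjusted p = 0.0708). With no filter on low counts, *Tsc22d3* (0.54), *Ddit4* (0.58) and *Sgk1* (-0.75) were called. With the replicate number as a block, *Tsc22d3* (0.52, adjusted p = 0.0335), *Ddit4* (0.56, adjusted p = 0.00559) and *Sgk1* (-0.77, adjusted p = 0.000161) were also called. Libraries of the same number deviated together only weakly (correlation 0.0643), and whether a number marks a shared batch or day is not given in the labels. The 533 calls over all genes became 1367 with no filter, 1165 with the block, 153 at an adjusted p under 0.01, and 174 (without WT 2) to 1583 (without cKO 2) with a library left out. What caused these shifts was not tested. In the same order, the 8 calls of the receptor's partners became 13 with no filter, 3 at 0.01 and 0 to 17 with a library left out. The 5 calls of other induced genes became 9 with no filter, 9 with the block, 2 at 0.01 and 2 to 14, and the 3 calls of repressed genes became 5, 5, 0 and 1 to 6. Among the fits that left out a library, the lowest count of each of these lists came without WT 2 and the highest without cKO 2. The median of the repressed list became -0.01 with autosomal genes only. For 71 other named genes, 749 of 845 values kept their direction and call, 42 lost the call, 40 gained it and 14 changed sign, all of these in genes that were not called and with a library left out. With a library left out, *Hsp90ab1*, *Nfkb1*, *Nfkbia*, *Ppp5c* and *Zbtb20* were called without either cKO library, *Klf6* and *Klf13* without cKO 1, and *Rela*, *Nrip1*, *Per1*, *Tsc22d1*, *Tsc22d4*, *Fmnl3* and *Marcksl1* without cKO 2. The genes that changed sign ran from -0.13 to 0.05 for *Satb1*, -0.13 to 0.03 for *Auh*, -0.11 to 0.01 for *Cd4*, -0.46 to 0.23 for *Cd8a*, -0.07 to 0.57 for *Dusp1*, -0.19 to 0.03 for *Fkbp3*, -0.07 to 0.04 for *Klf10*, 0.00 to 0.16 for *Klf2*, -0.15 to 0.03 for *Zbtb1* and -0.73 to 0.20 for *Zbtb32*. *Klf9* and *Zbtb16*, with 7 to 22 reads in a library, are limited by depth.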
